A study of Mus musculus with 3 samples.

Results

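The 265 regions described here are places on mouse chromosomes 2 to 19 where both replicates of an Nrf2 chromatin immunoprecipitation and sequencing (ChIP-seq) experiment had a strong peak and few other shared peaks nearby. Peaks of the replicates that overlapped by 1 bp or more were merged into shared regions. A region was kept when its best score was 100 or more in each list and fewer than 2 other shared regions had centres within 100 kb. The rule kept 265 of 1750 shared regions in all (15.1%) and of 903 on chromosomes 2 to 19 (29.3%). The score is the authors' own value for each peak, read as minus 10 times log10 of the peak caller's p-value. The regions were thus chosen by overlap, scores and neighbours measured in these lists, and such values are given as a description with no test.

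All samples were C2C12 cells, a mouse myoblast line of wild-type genotype that forms myotubes when serum is lowered. The cells had differentiated for 72 h and had then received CDDO-Im at 100 nmol/L for 3 h. The labels name 2 ChIP replicates, made with the anti-Nrf2 antibody D1Z9C, and 1 input. Only the peak lists of the ChIP replicates were used, with 2892 and 3593 peaks. The input received the same compound, and no untreated ChIP group was compared, so no effect of the compound can be read from the regions. It is not stated if separate cultures gave the 2 replicates, and the depth of each is unknown. Positions are in the mm9 build, counted from 1.

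Nrf2 is a basic leucine zipper transcription factor. In resting cells its partner Keap1 holds it in the cytoplasm and directs it to degradation. Electrophiles such as the triterpenoid CDDO-Im modify Keap1, after which Nrf2 accumulates in the nucleus, pairs with a small Maf protein and binds antioxidant response elements. Genes of glutathione synthesis, quinone reduction, haem breakdown and NADPH supply are its best-known targets. Without an mm9 annotation or sequence at hand, each region is identified by its coordinates, and neither genes nor motifs are reported. That these are Nrf2 sites rests on the antibody named in the labels.

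The isolated strong regions were limited mainly by replicate 1. Scores of the 265 regions ran from 100.3 to 1801 in replicate 1, with a median of 166, and from 105 to 2373 in replicate 2, with a median of 459. The smaller of the 2 scores was that of replicate 1 in 251 regions. Among the 389 isolated shared regions of chromosomes 2 to 19 that missed the threshold, 270 fell below 100 in replicate 1 alone, 12 in replicate 2 alone and 107 in both. A score reflects depth as well as enrichment, so the order of the replicates was not read as a difference in binding.

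Of the 449 peaks of replicate 1 on chromosomes 2 to 19 with a score of 100 or more, 265 (59.02%, 95% Wilson interval 54.4 to 63.5%) lay in the isolated strong regions. A further 146 lay in crowded regions, 12 in isolated regions that were weak in replicate 2, and 26 had no partner. In replicate 2 the same 265 regions held 265 of 1049 such peaks (25.3%, 22.7 to 28.0%). There, 351 peaks had no partner and 270 lay in isolated regions that were weak in replicate 1. At a score of 500 or more the isolated strong regions held 115 of 144 peaks of replicate 2 (79.9%, 72.6 to 85.6%) and 17 of 30 of replicate 1 (56.7%, 39.2 to 72.6%). All other peaks of replicate 1 at that score, 13 of them, lay in crowded regions. The rule chose the regions by these same scores, so it partly sets these shares, and they were not read as a result about the regions. The intervals cover counting error only, and they treat peaks of 1 library as independent, which they are not.

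Of 5 classes by the smaller score, the one next to the threshold held the most regions. The smaller score was from 100 to below 150 in 116 regions (43.8%), from 150 to below 200 in 42, from 200 to below 300 in 59, from 300 to below 500 in 31 and 500 or more in 17. A score of 200 or more in each list was reached by 107 of the 265 regions (40.4%). Over all 1750 shared regions this share was 13.1%, but the rule itself raised it in the isolated strong regions. At 500 or more in each list the numbers were 17 of 265 (6.42%) and 1.77% over all shared regions. Just 4 regions reached 1000 in both lists, against 0.457% of all shared regions, and they lay on chromosomes 2, 3, 4 and 8.

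Ranked among the 265 regions alone, the highest regions of the replicates overlapped. Regions left out by the rule were not ranked, and all ranked ones had already reached the threshold in both lists. Of the 265, the 10 highest in each replicate had 8 in common (80% of each) and the 20 highest had 17 (85%). The 50 highest had 38 in common (76%) and the 100 highest had 82 (82%). Their order was not the same. Of the 265, the 2 highest in replicate 1, on chromosomes 3 and 2, ranked 13 and 26 in replicate 2. A longer list takes in more of the 265 regions and shares more by length alone, so these shares cannot be compared between lengths. Spearman's rho between the scores of the replicates was 0.769 over the 265 regions, 0.661 over the 108 crowded regions past the same threshold and 0.182 over the 389 isolated weaker ones. These correlations describe regions that share 2 libraries, and the threshold cuts the range of scores in each set.

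**Figure D1:**
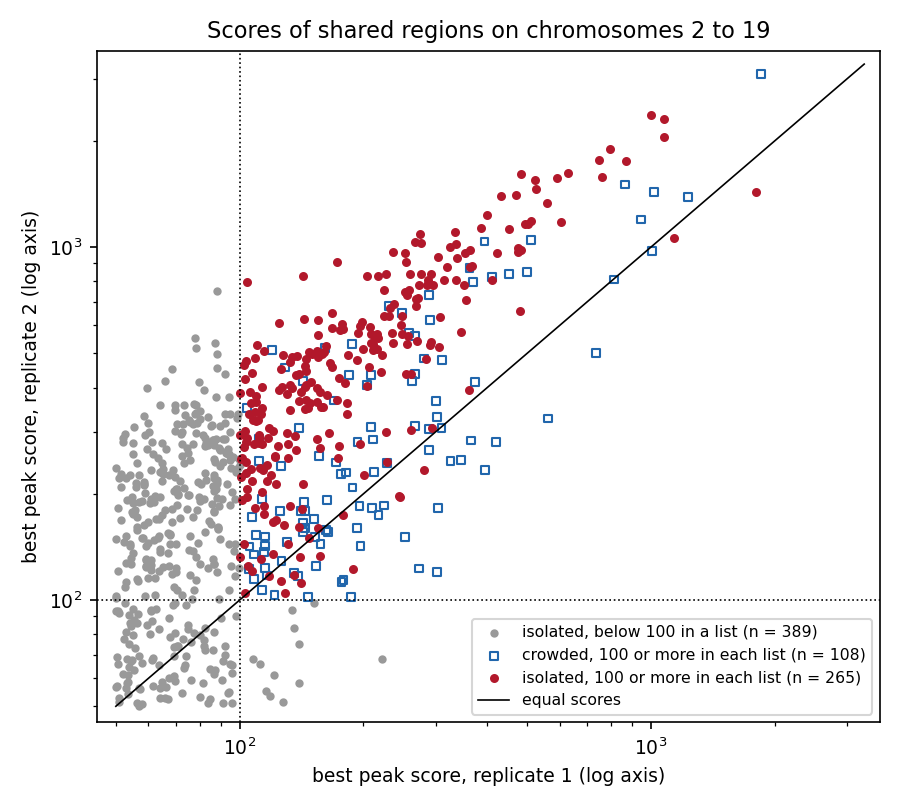
Best peak score in replicate 1 (x axis) and replicate 2 (y axis) of shared regions on chromosomes 2 to 19, both on log axes, with the score threshold of 100 as dotted lines. Most of the 265 isolated strong regions form a band above the line of equal scores, and 14 lie on or below it.

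The highest-ranking region by the worse of its ranks in the 2 lists was chr4:14825608-14826521, 914 bp wide, which scored 1075 (replicate 1) and 2309 (replicate 2). No other peak of either list lay within 100 kb of it. Next came chr8:77613208-77614066, with scores of 1073 and 2051, and chr11:75196743-75197642, with 999.8 and 2373. The latter was the highest score of replicate 2 among the 265 regions. These 3 regions were 859 to 914 bp wide.

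The fourth region, chr8:77607411-77608351, scored 869 and 1749 and is the neighbour of the second. The region in place 5, chr16:14350515-14351454 scored 793 in replicate 1 and 1896 in replicate 2. The sixth, chr19:4045613-4046658, scored 747 and 1763. All of them had a replicate 2 score between 1.91 and 2.39 times that of replicate 1.

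Chromosome 13 held 4 of the first 12 regions. Those at chr13:13117818-13118636 and chr13:13260512-13261577 had replicate 1 scores of 761 and 628, and replicate 2 scores of 1576 and 1624. Their centres lay 142.8 kb apart, just beyond the radius of the rule. The region chr13:14126030-14126864 scored 522 and 1547, and chr13:27821919-27822793 scored 527 and 1465. The other 2 of the first 12 were chr5:144175395-144176414, with 592 and 1574, and chr3:95848213-95849199, with 1801 and 1436. Among the first 12, the region on chromosome 3 was the one with the higher score in replicate 1, where it ranked first of the 265.

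Every chromosome from 2 to 19 held isolated strong regions, from 8 on chromosomes 12 and 18 to 25 on chromosome 2. Per Mb of span, which was taken as the largest peak end in either list, chromosome 19 held the most (12 regions, 0.196 per Mb), followed by chromosome 16 (18 regions, 0.185 per Mb). Chromosome 7 held the fewest (9 regions, 0.0591 per Mb). Over chromosomes 2 to 19 together there was 1 region per 8.48 Mb. The share of a chromosome's shared regions that were isolated and strong ran from 12.8% on chromosome 4, where 19 of 149 qualified, to 52.2% on chromosome 19, where 12 of 23 did.

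The best region of each chromosome differed widely in score. On chromosome 2 it was chr2:112273289-112274175, with 559.9 in replicate 1 and 1335 in replicate 2. On chromosome 9 it was chr9:77598259-77598905, with 511 and 1184. The best region of chromosome 17 was chr17:80654276-80655073, with 484 and 1608. These 3 stood in places 13, 14 and 15 of the order. Chromosomes 15, 7 and 10 had their best at chr15:6009561-6010541 (432 and 1393), chr7:52715889-52716812 (399 and 1235) and chr10:82321434-82322259 (424 and 960).

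At the lower end, the best regions of chromosomes 12, 6 and 14 scored close to 300 in replicate 1. They were chr12:16859952-16860759 (303 and 939), chr6:99883237-99883915 (292 and 839) and chr14:99946882-99947809 (313 and 809). Chromosome 18 had the lowest best region, chr18:83986573-83987329, with scores of 205 and 828 and place 90 in the order. The best regions of the other chromosomes were among the first 12.

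**Figure D2:**
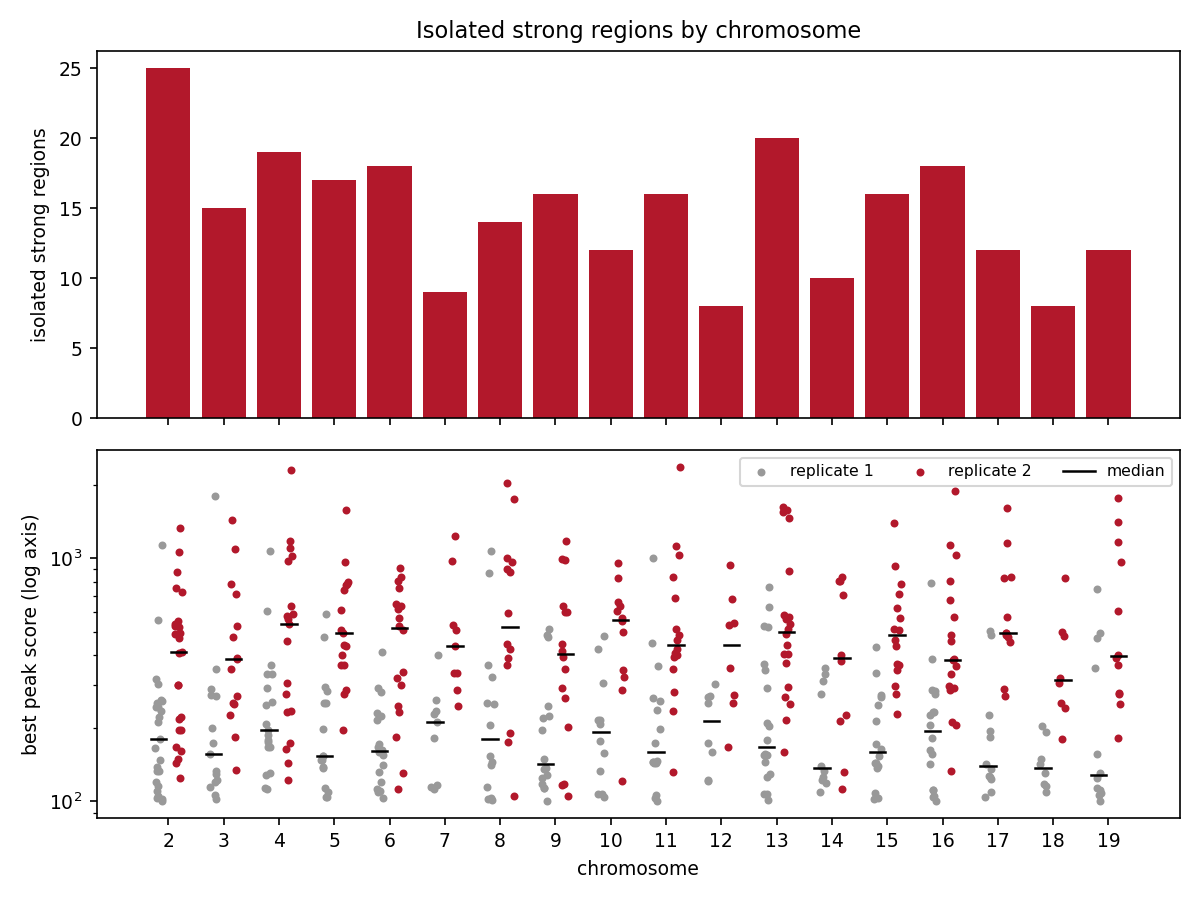
Number of isolated strong regions on each chromosome (upper panel, bars from 0) and the best peak scores of these regions in replicates 1 and 2 (lower panel, log axis, points are regions and lines are medians). Chromosome 2 held 25 regions and chromosomes 12 and 18 held 8 each, and on every chromosome the median of replicate 2 lay above that of replicate 1.

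Along the chromosomes the regions were spread thinly. Of 235 windows of 10 Mb, 148 held at least 1 region and 87 held none. A window held at most 5 regions, which was reached from 20 to 30 Mb on chromosome 2, from 80 to 90 Mb on chromosome 17 and in the first 10 Mb of chromosome 19. The median distance from 1 region to the next on its chromosome was 4.80 Mb, with quartiles of 1.83 and 12.5 Mb. The longest stretch without a region, 59.2 Mb, lay on chromosome 2 between 44796808 and 103985928. It was followed by 47.6 Mb on chromosome 8 between 15732017 and 63338015, and by 44.8 Mb on chromosome 7 between 80421398 and 125248009.

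The regions were compact and uniform in width. The median width was 788 bp, with quartiles of 696 and 859 bp, and 242 of 265 regions (91.3%) measured 500 to 1000 bp. So did 82.0% of the isolated weaker regions, 74.0% of all shared regions of chromosomes 2 to 19 and 59.7% of all shared regions. Of the crowded regions past the same threshold, whose median scores were 193 and 246, 75 of 108 (69.4%) were wider than 1000 bp and the median was 1360 bp. Among the 265, 17 (6.42%) were wider than 1000 bp, against 22.1% of all shared regions. Isolated weaker regions were compact too, with a median of 657 bp and 2.57% wider than 1000 bp. In 260 of the 265 regions each replicate had a single peak (98.1%, Wilson interval 95.7 to 99.2%), against 92.2% of all shared regions and all 389 isolated weaker ones. In the other 5 of the 265, replicate 1 had 2 or 3 peaks and replicate 2 had 1.

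The replicate 2 peak was usually the wider one and enclosed that of replicate 1. The span covered by the peaks of a replicate had a median of 596 bp in replicate 1 and 780 bp in replicate 2, a median quotient of 1.30. The span of replicate 2 was longer in 249 of 265 regions (94.0%) and in 94.6% of the isolated weaker ones. It was longer in 90.8% of all shared regions of chromosomes 2 to 19 and in 84.9% of all shared regions. The span of replicate 1 lay wholly inside that of replicate 2 in 208 of the 265 (78.5%, Wilson interval 73.2 to 83.0%). This was so in 62.7% of all shared regions and 82.0% of the isolated weaker ones. Wider spans went with higher scores, with rho of 0.546 in replicate 1 and 0.460 in replicate 2. The median width was 711.5 bp where the smaller score was below 150 and 900 bp where it was 500 or more.

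Peak centres of the replicates nearly coincided. The median distance between them was 34.5 bp, and 189 of 265 regions (71.3%) had centres within 50 bp. This was so in 64.8% of the isolated weaker regions and 54.2% of all shared regions. In 251 regions (94.7%) the centres lay within 100 bp, against 90.7% of the isolated weaker regions and 76.6% of all shared regions. Isolated weaker regions had a median distance of 35.5 bp and crowded strong regions one of 98.2 bp. The rho between this distance and the smaller score was 0.022. The shift had no common direction, as the centre of replicate 2 lay at the higher coordinate in 125 regions and at the lower one in 139. A centre is the midpoint of a span, since summit positions were not used here.

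**Figure D3:**
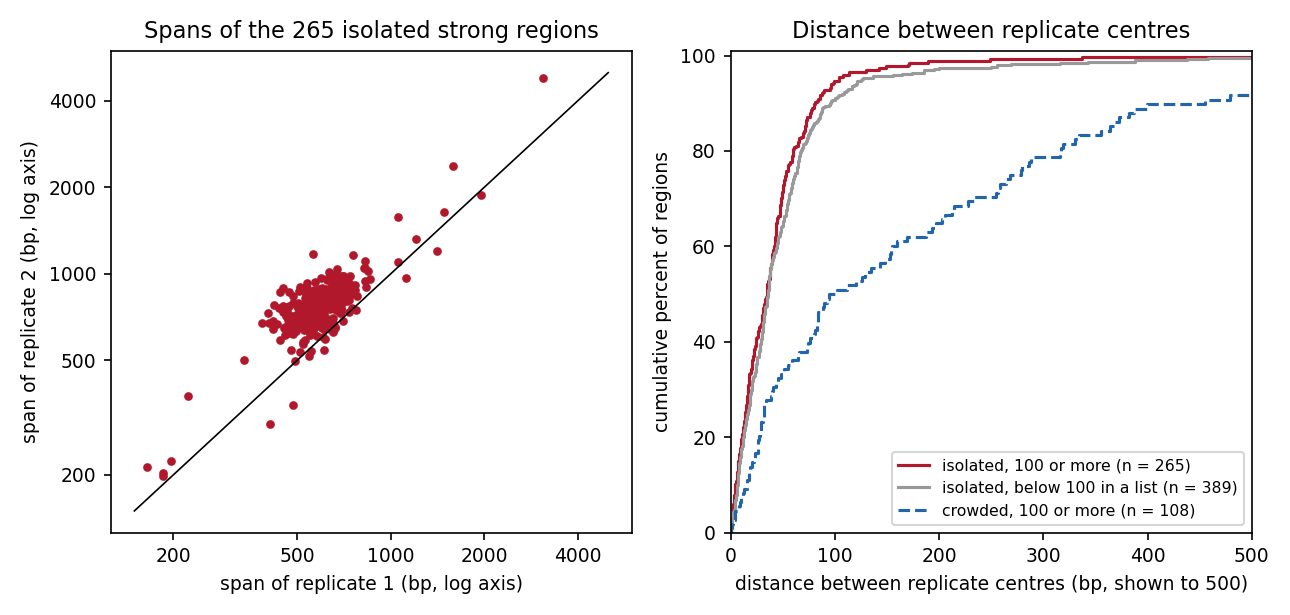
Left, span of replicate 1 (x axis) and replicate 2 (y axis) in bp on log axes for the 265 isolated strong regions, with the line of equal spans. Right, cumulative percent of regions by the distance between replicate centres, where the isolated sets reach medians of 34.5 and 35.5 bp and the crowded set one of 98.2 bp.

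A few regions departed from this shape. The widest was chr14:5478294-5483090, 4797 bp wide, where replicate 1 had 3 peaks and the centres lay 666.5 bp apart. It scored 126 and 113. Chromosome 14 also held the second widest, chr14:3219377-3221743, with 2367 bp and scores of 140 and 133. Next in width, chr6:25455749-25457808, measured 2060 bp and scored 120 and 302. The narrowest were chr2:44796607-44796808, chr4:130781388-130781596 and chr8:71962867-71963080, 202, 209 and 214 bp wide, with replicate 1 scores of 102, 188 and 103, and replicate 2 scores of 144, 122 and 105. The next largest centre distances were 337.5 bp at chr11:34443517-34445167, with scores of 100.3 and 132, and 249 bp at chr9:22971944-22973118, with 224 and 639. None of these regions reached a score of 300 in replicate 1.

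The quotient of the scores, replicate 2 over replicate 1, ran from 0.650 to 7.64 over the 265 regions. Its median was 2.50, with quartiles of 1.98 and 3.06. In 180 of 265 regions (67.9%) the replicate 2 score was 2 to 4 times that of replicate 1. This was so in 43.7% of the isolated weaker regions, 43.1% of all shared regions of chromosomes 2 to 19 and 26.7% of all shared regions. The chromosome medians ran from 2.09 on chromosome 12 to 3.46 on chromosome 17. Isolated weaker regions had a median of 2.32. Crowded strong regions had a median of 1.21, and the shared regions outside chromosomes 2 to 19 one of 1.00. A quotient of 1.5 or more was found in 225 of the 265 regions (84.9%) and in 270 of the 389 isolated weaker ones (69.4%). It was found in 36 of the 108 crowded strong ones (33.3%). Over all shared regions of chromosomes 2 to 19 the share was 63.9%, and over all shared regions it was 43.0%. Every quotient compares the same 2 libraries. The threshold of 100 acted on both scores, and these differences between sets were not tested.

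**Figure D4:**
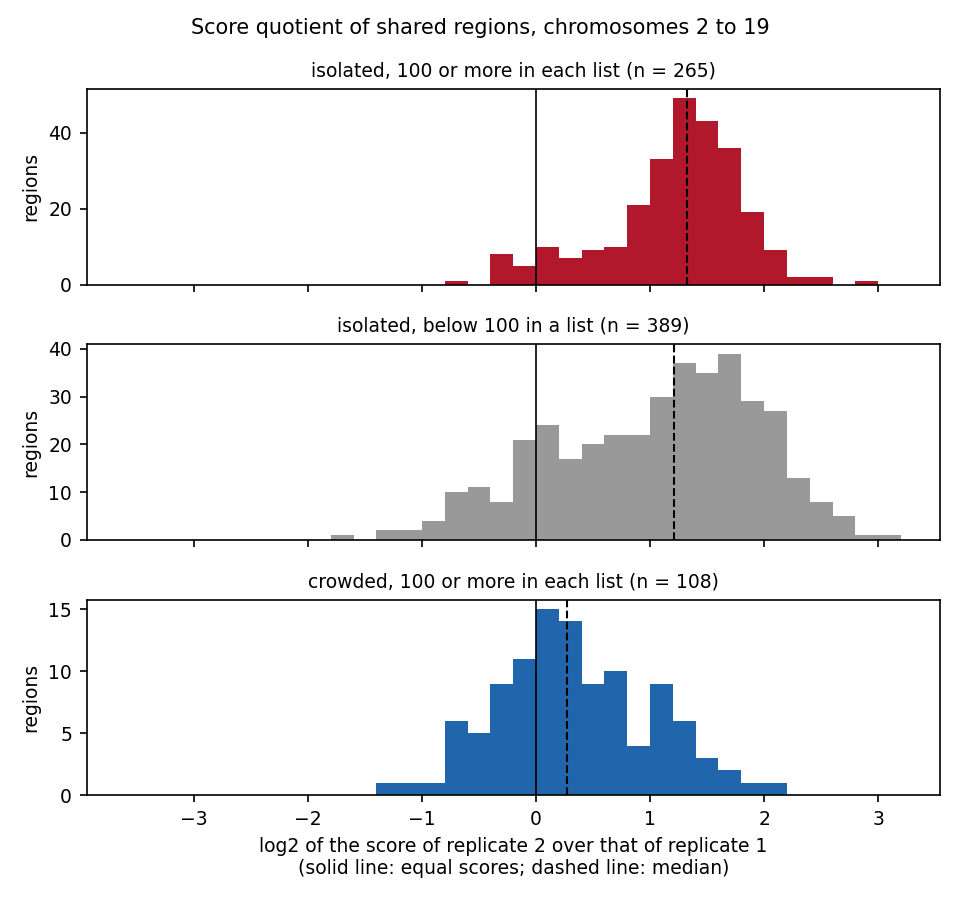
Histograms of log2 of the replicate 2 score over the replicate 1 score for 3 sets of shared regions on chromosomes 2 to 19, with equal scores as a solid line and the median as a dashed line. The isolated strong regions peak near their median quotient of 2.50 with a tail that crosses equality, and the crowded strong regions centre near 1.21.

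In 14 of the 265 regions (5.28%) replicate 1 scored at least as high as replicate 2, and in 251 (94.7%) replicate 2 scored higher. Replicate 2 scored higher in 84.8% of the isolated weaker regions. That share was 81.7% of all shared regions of chromosomes 2 to 19 and 66.1% of all shared regions. The lowest quotient, 0.650, came from chr4:130781388-130781596, the second narrowest region. It was followed by chr6:31767271-31768082 (scores 141 and 112), chr3:95848213-95849199 (1801 and 1436), chr2:8115593-8117000 (245 and 196) and chr2:16964843-16965066 (244 and 197). The last of these was 224 bp wide. Of the 4 regions that reached 1000 in both lists, 2 were among the 14, namely the region on chromosome 3 and chr2:122506735-122508380 (1135 and 1058), which is named here after its values were seen.

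Regions with a low quotient also differed in width and surroundings. Of the 40 regions with a quotient under 1.5, 14 were narrower than 500 bp or wider than 1000 bp, compared with 9 of the other 225. All 6 regions narrower than 500 bp were among the 40. At least 2 other peaks of either list, shared or not, lay within 100 kb of 11 of the 40 (27.5%) and of 14 of the 225 (6.22%). What set the quotient was not tested.

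At the other end, the highest quotient was 7.64 at chr5:22967394-22967983, with 104 in replicate 1 and 798 in replicate 2. The next were chr17:4626073-4626699 (142 and 827), chr6:87817040-87817918 (172 and 910), chr19:5345290-5346455 (124 and 610) and chr2:34725004-34725615 (110 and 527). In replicate 1 all of these scored below 200, and in replicate 2 all scored above 500. A quotient of 4 or more was found in 14 of the 265 regions (5.28%), on 10 chromosomes. This share was close to the 5.09% of all shared regions. It was below the 8.64% of all shared regions of chromosomes 2 to 19 and the 14.1% of the isolated weaker ones. The 14 regions had a median width of 787 bp, and 13 of them had the replicate 1 span inside that of replicate 2.

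Isolation was counted among shared regions, and by that count 220 of the 265 regions (83.0%) had no neighbour within 100 kb and 45 had 1. No neighbour was found for 86.1% of the isolated weaker regions and 42.6% of all shared regions. The nearest shared region lay at a median distance of 647 kb, and over 1 Mb away from 109 regions (41.1%). The isolated weaker regions lay further apart, with a median of 889 kb and 47.3% over 1 Mb away. Over all shared regions 17.8% lay that far away. When peaks found in a single list were counted too, with overlapping peaks merged, 164 regions (61.9%) had no other peak within 100 kb, against 65.8% of the isolated weaker regions and 29.1% of all shared regions, and the rule itself favoured such regions. By this count 76 had 1 other and 25 (9.43%) had 2 or more, so these 25 were not isolated in the wider sense. Their median quotient was 1.81, against 2.53 for the 164. There were 5 regions with at least 5 other peaks. They were chr13:65751077-65751950, chr4:145859106-145859805, chr2:26556440-26557098 and both wide regions of chromosome 14, named after their values were seen, and all had scores below 200 in both lists.

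The single neighbour of the 45 regions was another isolated strong region in 22, which made 11 pairs. In 22 others the neighbour scored below 100 in a list, and in 1 it was a crowded region. In 15 of the 45 the neighbour lay within 10 kb. The closest, at 401.5 bp, was the weak neighbour of chr4:130781388-130781596, with scores of 57.9 and 66.5.

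The closest pairs lay 1.75 to 5.76 kb apart. On chromosome 8 the regions at 77607411 and 77613208, 5.76 kb apart, were both among the first 4 of the 265. On chromosome 16 the region at 14350515 had a partner at chr16:14352457-14353279, 1.88 kb away, with scores of 276 and 1028. On chromosome 11 the pair chr11:86423528-86424369 and chr11:86427295-86428055, 3.73 kb apart, had replicate 1 scores of 237 and 145, and replicate 2 scores of 689.5 and 482. In each of these 3 pairs the same partner was the higher one in both replicates.

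Both other close pairs were weaker. On chromosome 19, chr19:5847743-5848785 and chr19:5849897-5850602 had replicate 1 scores of 114 and 112, and replicate 2 scores of 401 and 279. On chromosome 9, chr9:3302897-3303878 and chr9:3304628-3305642 had replicate 1 scores of 135 and 118, and replicate 2 scores of 118 and 117. This pair, 1.75 kb apart, had 4 other peaks of either list within 100 kb of each partner, the other partner included, and neither partner had a higher score in replicate 2. Over the 11 pairs, the same partner ranked higher in both replicates in 9. The exceptions were the pairs on chromosome 4 and chromosome 18, with scores from 118 to 196 in replicate 1. Among the 9, the pairs on chromosomes 9 and 19 had nearly equal scores in 1 replicate.

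**Figure D5:**
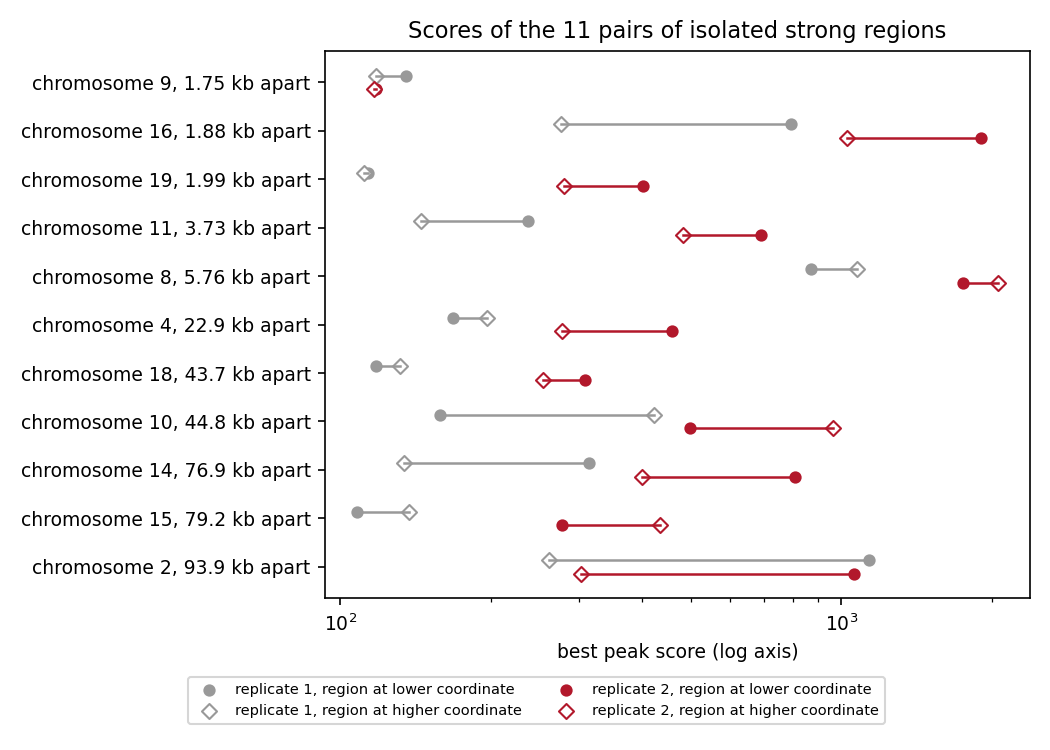
Best peak scores (x axis, log) of both partners in the 11 pairs of isolated strong regions, ordered by their distance, with replicate 1 in grey and replicate 2 in red. In 9 pairs the circle and the diamond stand in the same order in both replicates, and in the pairs on chromosomes 4 and 18 the order differs.

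The threshold of 100 divided a continuous range. The regions just inside it were chr9:59501044-59501741, chr11:34443517-34445167, chr16:28963726-28964620, chr19:46301630-46302330 and chr2:21033056-21033655, with replicate 1 scores of 100.3 to 100.8 and replicate 2 scores of 132 to 387. Just outside it were chr13:63317725-63318348, chr13:99950962-99951583, chr10:10110433-10111019, chr8:93807597-93808276 and chr15:98362464-98363302, with 98.9 to 99.98 in replicate 1 and 123 to 337 in replicate 2. The smaller score was below 110 in 38 members and at least 90 in 38 isolated regions outside. The isolated region with the highest replicate 2 score outside the set was chr2:30983374-30983988, with 748 there and 88.0 in replicate 1, chosen after its value was seen.

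The limit on neighbours left out 108 regions of chromosomes 2 to 19 with scores of 100 or more in each list, and 12 of these had exactly 2 neighbours. Among the 12 were compact regions such as chr3:107625884-107626827 (944 bp, 509.9 and 1048) and chr13:34490471-34491371 (901 bp, 362 and 874), as well as wide ones such as chr4:146017355-146026451 (9097 bp, 866 and 1504). The highest-scoring region of chromosomes 2 to 19, chr13:12905848-12906817 with 1855 and 3100, was left out because it had 3 neighbours. These examples were chosen after their values were seen.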

How the data were processed

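The deposited lists hold, for each ChIP replicate, peak positions and a score. The submitters' processing notes name bcl2fastq 2.15.0, Bowtie2 and MACS 1.4 with mm9, and no roles or settings. The use of the input as control is not stated. The authors' deposited score was read as minus 10 times log10 p, because the lowest values are near 50, a caller p of 1e-05. Chains of overlapping peaks were merged, and each region took its best score in each list. The code was tested on simulated lists.

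No difference between sets or replicates was tested. Intervals printed with shares are 95% Wilson intervals, and most shares are given without one. Named regions are the 12 best by the worse rank in the 2 lists, the best of each chromosome, 5 on each side of the score threshold, the 5 highest and 5 lowest score quotients, the 3 widest and 3 narrowest, the 5 closest pairs and the 3 largest centre distances. Regions, lists and rule were chosen with earlier results of these data known. Gene and motif analyses were not run, for lack of an mm9 reference. Software was Python 3.11.15 with NumPy 2.4.6, pandas 2.3.3, SciPy 1.17.1 and matplotlib 3.10.9.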

Additional observations from a re-analysis of the deposited data

How the results depend on the processing

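Of 48 alternative values from 8 settings, 41 stayed within their limits. The limits were 1.5 times for the number of regions and the 95% interval of the reported value otherwise. Settings other than the score thresholds kept 240 or more of the 265 regions, so most values had little room to move. The intervals treat regions of the same 2 libraries as independent, which they are not. The number of regions moved to 107 with scores of 200 or more and to 402 with scores of 75 or more, in place of 265, because the threshold decides how many enter. At these thresholds the median quotient of spans was 1.27 and 1.33, and rho between the scores was 0.71 at 75 or more. The share with a single neighbour was 23.7% with a radius of 200 kb and 31.7% when all peaks counted as neighbours, as both settings count more neighbours by construction. With overlap of at least 50% of both peaks 261 of the 265 regions were found again, and with centres within 200 bp 260 were. Leaving out regions of 1100 bp or wider, an alternative chosen after seeing the data, kept 253. With either replicate left out there is nothing left to overlap. No paired analysis was possible because the labels give a single ChIP group. Motif and gene distance alternatives were not run. The unknown depth limits any reading of regions that missed the threshold in 1 list.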
